A study of Mus musculus with 6 samples.

Results

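Homer1, Bdnf, Inhba and Klf6 are genes whose transcripts rise when neurons are active, and all 4 were found by symbol among the 1375 genes of the authors' deposited table of differences between ketamine responders and nonresponders. The data were bulk RNA sequencing of prefrontal cortex from 6 male C57bl/6j mice. Siblings were housed 3 per cage, and every animal, in both groups, was given ketamine intraperitoneally at 10 mg/kg and killed 24 hours later. Novelty suppressed feeding and forced swimming had sorted them into 3 nonresponders (NR) and 3 responders (Res), so the groups share strain, sex, agent, dose and time and differ in behaviour alone as far as the labels state. No untreated mice are among the samples, and the ages of the mice are not stated. The authors' deposited p-value was below 0.05 and the level was higher in responders in all 1375 genes, so the table was selected on the difference between these same mice. The 4 genes were chosen by symbol from it with their read counts and FPKM values in both groups known, and the difference is described here with no test of its own.

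Neuronal firing and synaptic input raise calcium in the cell, and kinases then switch on transcription factors such as CREB and SRF. A first set of genes follows within minutes without new protein synthesis, and many of these encode transcription factors. A later set encodes proteins that act at synapses or are secreted, among them neurotrophins and ligands of the TGF-beta family. In cortex these genes are used as markers of recently active neurons, and Bdnf is widely discussed for the antidepressant action of ketamine.

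Homer1, Klf6 and Inhba stood higher in responder replicates 1 and 2 than in responder replicate 3, which lay close to the nonresponders, and Bdnf had the opposite order, with its highest level in replicate 3. Most listed genes were highest there too: responder replicate 3 was the highest of the 6 libraries in 1204 of the 1375 (87.6%) and the lowest of the 3 responders in 82 (5.96%). That library also stood apart as a whole, with a median of 18.8 FPKM (fragments per kilobase of gene length and per unit of the library's scale) over the listed genes, against 9.48 to 11.9 FPKM in the other 5 libraries. Its library scale was the smallest, at 14981505 reads, against 16343097 to 19298950 reads in the others. Differences between groups are therefore given with and without it. In bulk tissue, fewer cells of a type and less RNA per cell cannot be told apart, for these genes or any other.

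Homer1 encodes a scaffold of the postsynaptic density that links membrane receptors to Shank proteins and to calcium stores. Its short form, Homer1a, is induced by activity and uncouples these links, while the long forms are constitutive. The level of Homer1 was 23.3, 19.9 and 20.1 FPKM in nonresponder replicates 1, 2 and 3, on 5220, 4086 and 4645 reads. In responder replicates 1, 2 and 3 it was 34.6, 31.6 and 24.3 FPKM, on 7597, 6186 and 4367 reads. Every responder was above every nonresponder, but the gap between the lowest responder and the highest nonresponder was only 1.00 FPKM. The group means were 21.1 ± 1.94 FPKM (SD, n = 3) and 30.2 ± 5.27 FPKM (SD, n = 3), a 1.43-fold difference, or 1.57-fold without responder replicate 3. Replicate 3 alone was 1.15-fold above the nonresponder mean. GENCODE release M21 lists 12 transcripts of the gene, and the deposited values are per gene, so short and long forms are not told apart. It also places 2 genes, Gm47075 and Gm47088, on the same strand with spans that overlap Homer1. Overlap of exons was not examined, and any shared reads cannot be told apart here.

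Klf6 encodes a Krüppel-like zinc finger transcription factor. It stood at 14.4, 13.8 and 11.4 FPKM in the nonresponders, on 1180, 1040 and 965 reads, and at 18.6, 20.6 and 14.7 FPKM in the responders, on 1495, 1477 and 964 reads. The groups did not overlap, yet responder replicate 3 was only 0.266 FPKM, or 1.85%, above nonresponder replicate 1, less than the counting error of 2.59% to 3.22% of single libraries. Means were 13.2 ± 1.59 and 17.9 ± 3.01 FPKM (SD, n = 3 per group), 1.36-fold apart, and 1.48-fold apart without responder replicate 3.

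Inhba encodes the beta A subunit of inhibins and activins, and as a homodimer forms activin A, a secreted ligand of the TGF-beta family that signals through activin receptors to SMAD proteins. It was the least abundant of the 4 genes, with 2.96, 2.96 and 3.24 FPKM in the 3 nonresponders, on 353, 325 and 400 reads. Responder replicates 1, 2 and 3 had 5.07, 4.08 and 3.50 FPKM, on 594, 426 and 335 reads. Again responder replicate 3 was the lowest responder, and it lay 0.256 FPKM above the highest nonresponder. Means were 3.05 ± 0.164 and 4.22 ± 0.793 FPKM (SD, n = 3 per group), which is 1.38-fold, or 1.50-fold without that library. Counting error of single libraries was 4.10% to 5.55% of the Inhba count, and the gap was 7.89% of the highest nonresponder. GENCODE places 2 genes, B230303A05Rik and Gm48444, on the opposite strand with spans that overlap Inhba. The strand setting of the authors' counting is not given in the sources used here, so any shared reads cannot be told apart from those of Inhba.

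Bdnf encodes brain-derived neurotrophic factor, a secreted neurotrophin that acts on the receptor TrkB. It stood at 7.23, 6.84 and 6.66 FPKM in nonresponders, on 840, 730 and 799 reads, and at 8.25, 8.19 and 11.5 FPKM in responders, on 941, 832 and 1071 reads. Replicates 1 and 2 of the responders were close together and 0.955 FPKM or more above every nonresponder, while replicate 3 was far above both. Means were 6.91 ± 0.294 and 9.31 ± 1.89 FPKM (SD, n = 3 per group). The 1.35-fold difference was 1.19-fold without responder replicate 3, which by itself was 1.66-fold above the nonresponder mean. Bdnf overlaps 1 antisense gene, Gm45346, and any shared reads cannot be told apart from its own without the strand setting.

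**Figure D1:**
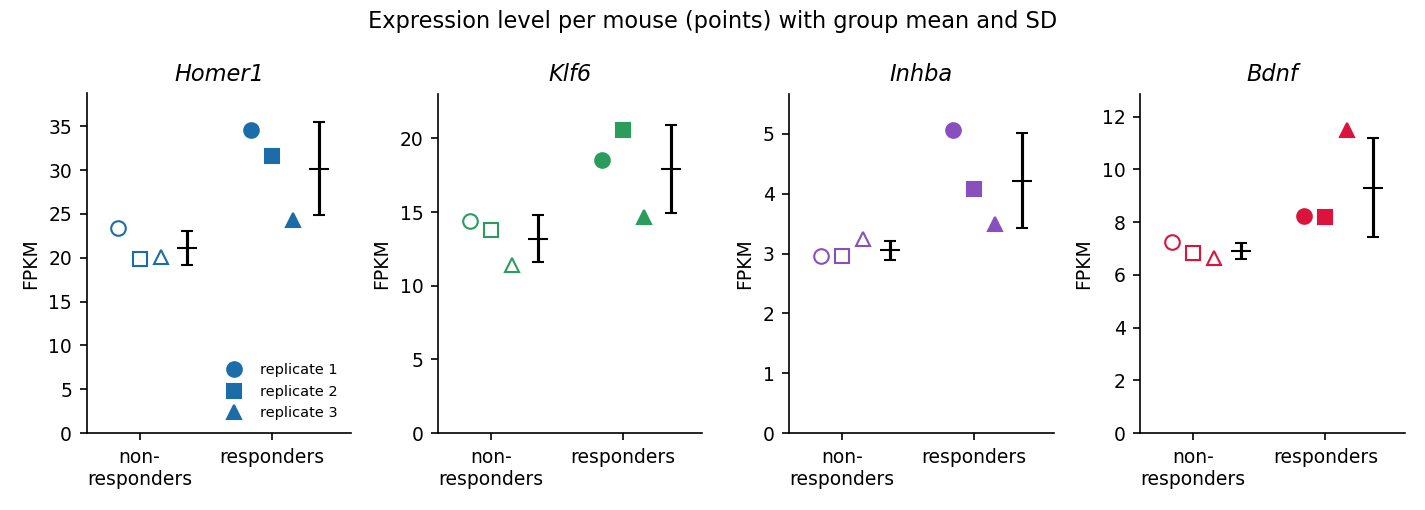
Expression levels (FPKM, axis from 0) of Homer1, Klf6, Inhba and Bdnf in each mouse, with open symbols for nonresponders, filled symbols for responders, one symbol shape per replicate number, and black bars for the group mean ± SD (n = 3 per group). Responder replicate 3 (filled triangle) is the lowest responder for Homer1 at 24.3 FPKM, Klf6 at 14.7 FPKM and Inhba at 3.50 FPKM, and the highest for Bdnf at 11.5 FPKM.

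None of the 4 genes had an adjusted p-value under 0.05 by the authors' deposited table, where 19 of 1375 listed genes did (1.38%). Homer1 had an adjusted p-value of 0.0987 by the authors' deposited table, Klf6 one of 0.197, Inhba one of 0.205 and Bdnf one of 0.208. By the unadjusted p of the authors' deposited table, Homer1 ranked 51st of the listed genes at 0.00142, and Klf6, Inhba and Bdnf ranked 377th, 430th and 471st at 0.0103, 0.0119 and 0.0129. In all 4 genes every responder lay above every nonresponder, as in 1010 of the 1375 listed genes (73.5%). Since the genes were selected for that contrast, nothing is read from either count. All 4 separations were lost when reads were scaled to the summed reads of the listed genes, a setting in which 111 listed genes (8.07%) had separate groups. That scaling also shifts the listed genes' median log2 difference from 0.57 to 0.039. Every listed gene had been selected as higher in responders. Responder replicate 3 also had the most listed reads, 3486903, on the smallest library scale. The parts of selection and of library scale in the shift were not tested. With this scaling, the log2 difference of Homer1 was 0.12, of Inhba 0.064 and of Klf6 0.034, while that of Bdnf turned to -0.066.

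Set against the other listed genes, the 4 genes had small differences with all 6 mice and, apart from Bdnf, large ones without responder replicate 3. The log2 differences of the group mean FPKM values were 0.52 for Homer1, 0.46 for Inhba, 0.44 for Klf6 and 0.43 for Bdnf, all below the median of 0.57 over the 1358 listed genes that had reads in both groups. Without responder replicate 3 that median was 0.26. Homer1, Inhba and Klf6 then stood at 0.65, 0.58 and 0.57, above 88.4%, 86.3% and 85.4% of the listed genes. Bdnf, at 0.25, stood above 45.4%. Every listed gene had been selected on the difference with all 6 mice, and 1204 of the 1375 were highest in responder replicate 3. A gene near the nonresponders in that replicate had to stand high in the other responders to be listed. The ranks without responder replicate 3 thus follow in part from the selection, and nothing is read from them.

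**Figure D2:**
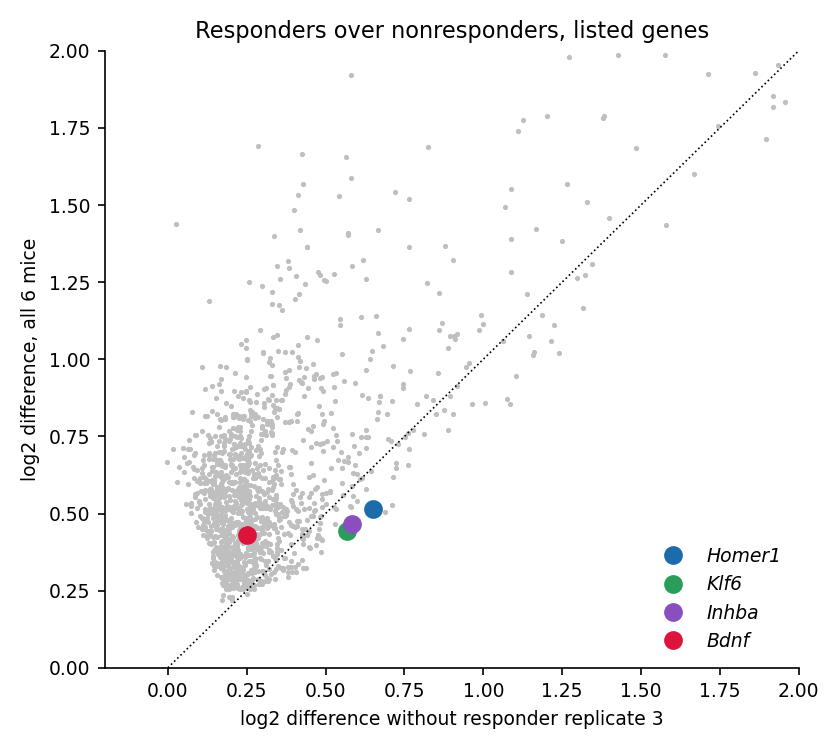
Log2 difference in mean FPKM of responders over nonresponders for listed genes (grey points), with all 6 mice on the vertical axis and without responder replicate 3 on the horizontal axis; the dotted line marks equal values, 1305 genes are drawn and 53 lie outside the axes. Homer1, Inhba and Klf6 lie below the line near 0.6 on the horizontal axis, and Bdnf lies above it with most listed genes.

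The same split appears library by library. In responder replicate 1, the log2 level over the nonresponder mean was 0.71 for Homer1, 0.73 for Inhba and 0.49 for Klf6, against a median of 0.23 over all listed genes. In replicate 2 these levels were 0.58, 0.42 and 0.64, against a median of 0.31. In replicate 3 they were 0.21, 0.20 and 0.15, against a median of 1.02, and only 1.33%, 1.25% and 0.590% of listed genes had lower values there. Bdnf followed the listed genes more closely, at 0.26, 0.24 and 0.73 in responder replicates 1, 2 and 3. The medians and shares of listed genes in each responder carry the same limit of selection.

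**Figure D3:**
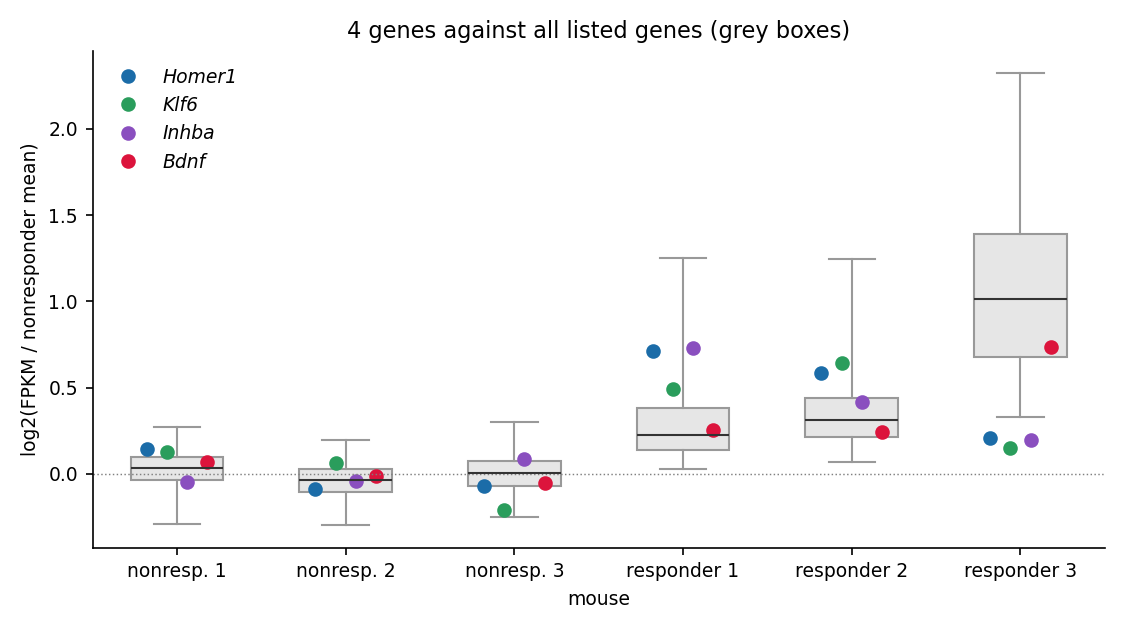
Log2 of FPKM over the nonresponder mean in each of the 6 mice, for the 4 genes (coloured points) and for all listed genes (grey boxes: quartiles and median, whiskers from the 5th to the 95th percentile). In responder replicate 3, Homer1, Klf6 and Inhba lie between 0.15 and 0.21, under the lower whisker, and Bdnf at 0.73 lies within the box.

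Ratios of genes within a library do not depend on its scale. Homer1 over Bdnf was 2.91 to 3.23 among nonresponders, whereas responder replicates 1, 2 and 3 had 4.19, 3.86 and 2.12. Bdnf over Klf6 was 0.496 to 0.585 among nonresponders and 0.445, 0.398 and 0.785 in the same responders. In both ratios responders lay on either side of the nonresponder range, which shows unequal change within the responders. Homer1 over Klf6 was 1.44 to 1.76 in nonresponders and 1.54 to 1.86 in responders, so these ranges overlapped. The same held for Homer1 over Inhba, at 6.20 to 7.89 and 6.82 to 7.75, and for Inhba over Klf6, at 0.206 to 0.285 and 0.198 to 0.273. Levels per length kept 1 order in every library, with Homer1 highest, then Klf6, Bdnf and Inhba, and within each group the ranges of neighbours in that order did not overlap.

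Gene length moved with the position of responder replicate 3. All 4 genes are long by the deposited gene length, at 11976 bases for Homer1, 6390 for Inhba, 6217 for Bdnf and 4391 for Klf6, against a median of 2722 bases over the listed genes. The 82 genes with replicate 3 as the lowest responder had a median length of 4143.5 bases, and the 1204 with it as the highest responder one of 2557.5 bases. Across 1141 listed genes with a mean of at least 100 reads and none at 0, Spearman's rho of length with the log2 level of replicate 3 over the mean of the other responders was -0.47. This is a correlation across genes of the same libraries, which are not independent. Among the 308 listed genes at least as long as Klf6, replicate 3 was the lowest responder in 40 (13.0%), against 42 of 1067 shorter genes (3.94%). On that log2 scale the long genes with at least 100 reads had a median of 0.43, Bdnf stood at 0.48, and Homer1, Klf6 and Inhba stood at -0.44, -0.42 and -0.39, above only 0.694%, 1.04% and 1.39% of those long genes. Homer1, Klf6 and Inhba were grouped because replicate 3 was their lowest responder, so a low standing on this scale was given in advance. The long genes were selected on a contrast that included replicate 3, and nothing is read from these ranks. The part of gene length or of RNA quality in the level of any of the 4 genes was not tested.

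By position, Homer1 lies at chr13:93299635-93405129, Inhba at chr13:16011851-16031621, Klf6 at chr13:5861482-5870394 and Bdnf at chr2:109674700-109727007 (mm10, all on the plus strand). Their identifiers are ENSMUSG00000007617, ENSMUSG00000041324, ENSMUSG00000000078 and ENSMUSG00000048482, and all are protein coding. Homer1, Klf6 and Inhba, the genes with responder replicate 3 as the lowest responder, are thus the 3 on chromosome 13, megabases apart. They did not share the rest of the order, since replicate 1 was the highest responder for Homer1 and Inhba and replicate 2 for Klf6.

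The bases before each start site are shown because Homer1 and Bdnf are known targets of CREB, which binds the cAMP response element (CRE). RefSeq (GRCm38.p6) gives 2 start sites with a window for Homer1, 7 for Bdnf and 1 each for Klf6 and Inhba. Each window below is 250 bases on the plus strand and ends at the base before the start site, and capitals mark the CRE half-site TGACGT, read on either strand as TGACGT or ACGTCA. The Homer1 window is chr13:93303507-93303756 and the Bdnf window, the third of its 7, is chr2:109692186-109692435. Those of Klf6 and Inhba are chr13:5861239-5861488 and chr13:16011601-16011850.
Homer1: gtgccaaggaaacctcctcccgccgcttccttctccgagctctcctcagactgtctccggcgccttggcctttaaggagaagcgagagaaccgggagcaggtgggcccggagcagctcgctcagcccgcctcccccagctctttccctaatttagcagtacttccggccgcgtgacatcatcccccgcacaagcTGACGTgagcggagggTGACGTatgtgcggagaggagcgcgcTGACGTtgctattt
Bdnf: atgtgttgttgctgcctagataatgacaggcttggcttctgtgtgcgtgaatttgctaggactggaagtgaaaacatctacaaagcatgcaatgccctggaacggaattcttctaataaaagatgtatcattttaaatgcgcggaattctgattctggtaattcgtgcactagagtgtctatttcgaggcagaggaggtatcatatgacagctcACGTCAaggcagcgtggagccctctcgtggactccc
Klf6: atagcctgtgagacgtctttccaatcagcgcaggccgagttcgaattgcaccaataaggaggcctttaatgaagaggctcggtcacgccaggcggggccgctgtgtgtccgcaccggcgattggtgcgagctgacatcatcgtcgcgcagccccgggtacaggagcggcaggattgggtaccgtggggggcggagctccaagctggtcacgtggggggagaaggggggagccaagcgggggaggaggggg
Inhba: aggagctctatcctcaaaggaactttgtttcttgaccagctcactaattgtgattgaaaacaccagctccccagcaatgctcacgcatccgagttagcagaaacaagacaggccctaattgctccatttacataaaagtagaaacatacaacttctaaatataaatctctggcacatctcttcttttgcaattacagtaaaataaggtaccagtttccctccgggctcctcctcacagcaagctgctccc

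The Homer1 window held 3 half-sites, which begin 56, 40 and 14 bases before the start site. Of 32851 windows of this length in the table, 6.47% held at least 1 half-site and 0.152% held 3 or more. The third Bdnf window held 1, beginning 36 bases before its start site, and the other 6 Bdnf windows, the second Homer1 window and those of Klf6 and Inhba held none. The full CRE, TGACGTCA, which contains the half-site on both strands, was in none of the windows of the 4 genes and in 1.55% of all windows. The AP-1 site TGANTCA was in 1 Bdnf window, the second, and in 6.75% of all windows. The CArG box, the motif of SRF, was in none of them and in 1.47% of all windows. Which start sites were in use cannot be told from values per gene.

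Most other activity-regulated genes have no row in the table, so they are not analysed here. Of 44 rapid genes in a list that includes Fos, Arc, Egr1, Npas4 and Nr4a1, only Homer1 and Klf6 were in the table. Of 36 late genes, 15 were in it, Bdnf and Inhba among them, and Scg2 and Kcnj2 passed in the authors' deposited table, so 2 of 15 passed against 1.38% of all listed genes. The median log2 difference of the 15 was 0.55, close to the 0.57 of all listed genes, and it was 0.33 against 0.26 without responder replicate 3. Groups were separate in 11 of the 15, about the share of all listed genes (73.5%).

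Among these late genes, Scg2, the vesicle protein secretogranin 2, averaged 79.8 ± 6.80 FPKM (SD, n = 3) among nonresponders and 117 ± 8.37 FPKM (SD, n = 3) among responders, the highest being replicate 3 at 126 FPKM. Kcnj2, an inward rectifier potassium channel, had the order of Homer1, with nonresponders at 1.86 to 2.19 FPKM and responder replicates 1, 2 and 3 at 4.55, 3.93 and 2.57 FPKM. Pcsk1, a protease that processes neuropeptide precursors, was even across responders, at 17.9, 18.3 and 17.4 FPKM, above the 13.6 to 15.0 FPKM of the nonresponders. Tpbg, a membrane glycoprotein, stood at 3.42, 4.46 and 4.32 FPKM in responders and 2.64 to 2.77 FPKM in nonresponders. Rgs2, a regulator of G protein signalling, stood at 14.0, 18.3 and 23.9 FPKM, and the neuropeptide gene Tac1 at 4.33, 6.61 and 12.2 FPKM. Both were highest in replicate 3, as Bdnf was, and for Tac1 the groups overlapped. In the rapid and late lists together, 13 genes other than the 4 were in the table, and 3 of these had responder replicate 3 as the lowest responder (Kcnj2, Pcsk1 and Cdkn1a), beside 5.96% of all listed genes. The count was made after the values of the 4 genes were seen, and Cdkn1a was put in the list after values were seen. Pcsk1 differed little between the responders. The count is a description, and nothing is read from it against that share.

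**Figure D4:**
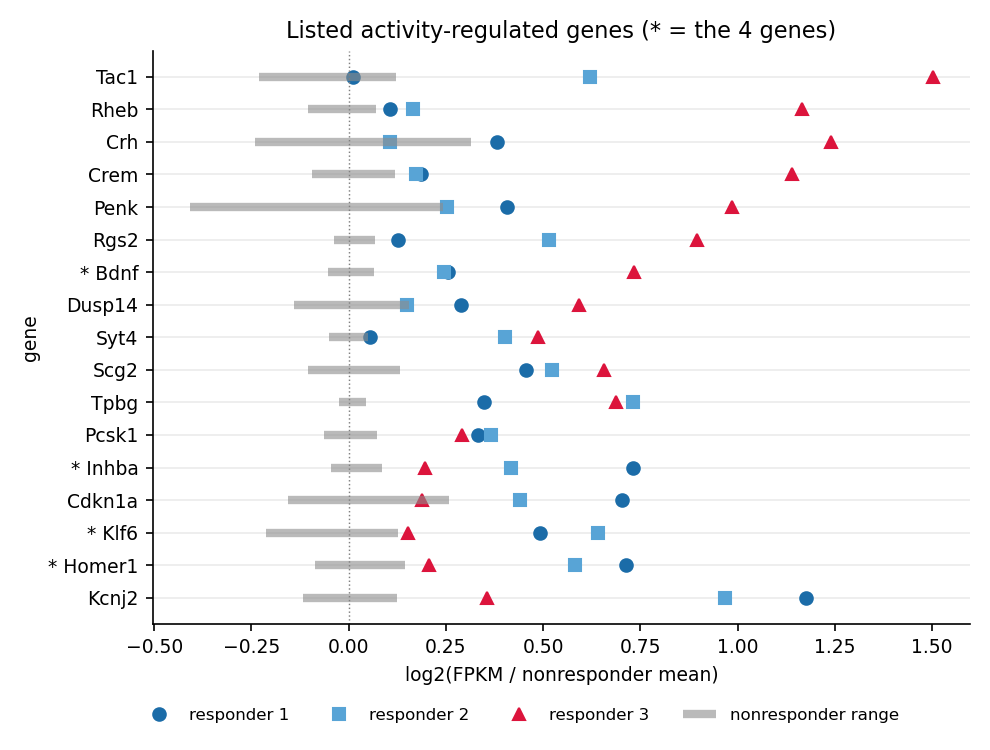
Log2 of FPKM over the nonresponder mean for the 17 activity-regulated genes in the table, with one symbol per responder and a grey bar for the range of the 3 nonresponders, sorted by how far responder replicate 3 lies from the other responders. Kcnj2, Homer1, Klf6, Cdkn1a, Inhba and, by a small margin, Pcsk1 have replicate 3 at the left of the responders. Bdnf stands with genes such as Rgs2 and Penk that have it at the right.

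Partners of the 4 genes were largely outside the table. Of 25 genes of Homer partners at the postsynaptic density, of 23 genes of activin and inhibin signalling and of 24 Krüppel-like and Sp factors, only Homer1, Inhba and Klf6, respectively, were listed. The activin receptors and follistatin were thus not analysed here. Of 37 genes of BDNF, TrkB and mTOR signalling, 4 were listed, and 0 of them passed in the authors' deposited table, where 1.38% of all listed genes did, so that a count of 0 among 4 says little. Beside Bdnf and Pcsk1 these were Eif4e, which binds the mRNA cap, and Rheb, an activator of mTOR. Eif4e had 18.4 to 19.1 FPKM among nonresponders, and responder replicates 1, 2 and 3 had 20.6, 24.0 and 28.2 FPKM. Rheb stood at 13.4 to 15.2 FPKM in nonresponders and at 15.5, 16.2 and 32.4 FPKM in responders, so it was near the nonresponder range in all but replicate 3. TrkB itself (Ntrk2) was not in the table.

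The listed genes most like each of the 4 were found from the root mean square difference of log2 levels over the nonresponder mean across the 6 libraries, among 1140 other genes with a mean of at least 100 reads and none at 0. For Homer1 these were Cdkn1a, an inhibitor of cyclin-dependent kinases, at 0.085, the chaperone Calr at 0.10 and the transporter Slco3a1 at 0.108, where the median gene was at 0.40. Inhba ranked 6th and Klf6 7th for likeness to Homer1, at 0.12 and 0.13, and Bdnf 315th at 0.32. Klf6 and Inhba were less alike, at 0.20, where Klf6 ranked 55th for Inhba and Inhba 56th for Klf6. For Klf6 the nearest were the Hsp70 and Hsp90 cochaperone Stip1, the phosphatase subunit Ppp1r10 and the ER cochaperone Dnajc3, at 0.11 each. For Inhba they were the growth factor Fgf2 at 0.096, Ankrd6 at 0.099 and the receptor Gpr17 at 0.11. Bdnf was nearest to Ahsa1, an activator of Hsp90, at 0.037, to the peroxisomal gene Pex13 at 0.037 and to Rpl7l1 at 0.041, where the median gene was at 0.18, and Homer1, Inhba and Klf6 ranked 965th, 947th and 954th. Likeness over 6 libraries is a description of these values.

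Listed markers of several cell types were higher in responders, as every gene of the table was. Of 12 excitatory neuron markers, Slc17a6 and Rorb were in the table, with a summed level of 4.54 to 5.43 FPKM among nonresponders against 6.23 to 7.57 FPKM among responders. Of 12 inhibitory neuron markers, 3 were in it (Vip, Lamp5 and Pvalb), and summed to 51.0 to 63.2 FPKM among nonresponders and to 68.3, 59.7 and 111 FPKM in responder replicates 1, 2 and 3. For the inhibitory markers the groups thus overlapped. The summed level of 4 of 12 astrocyte markers was 192 to 217 FPKM among nonresponders against 245 to 333 FPKM among responders. For 5 of 12 microglia markers it was 72.1 to 84.6 FPKM and 95.0 to 192 FPKM, and for 6 of 12 leptomeningeal markers 7.65 to 9.43 FPKM and 13.0 to 19.8 FPKM. The groups did not overlap in these 3 sums. In nonresponders, the astrocyte sum was mostly Aldoc, at 153 to 167 FPKM, and the leptomeningeal sum mostly Igfbp2, at 6.28 to 6.41 FPKM. Taken alone, 4 of 4 astrocyte, 4 of 5 microglia and 5 of 6 leptomeningeal genes had separate groups, beside 73.5% of all listed genes. Tyrobp and Ogn overlapped, and Lum had as few as 4 reads. One oligodendrocyte precursor marker of 9 was listed, Gpr17, at 4.97 to 6.11 and 6.81 to 8.49 FPKM, and 1 endothelial marker of 14, Slco1c1, at 6.30 to 7.55 and 7.13 to 12.4 FPKM, with overlap. None of 12 oligodendrocyte markers was in the table, and no listed marker was at 0 in any library. Apart from Gpr17, each of these sums was highest in responder replicate 3, where Homer1, Klf6 and Inhba were lowest among responders. The part of cell makeup in the 4 genes was not tested. Defining neuron markers such as Slc17a7, Camk2a and Gad1 are outside the table, so the tissue label could be checked only through the listed ones.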

How the data were processed

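RNA from prefrontal cortex of each of 6 mice was sequenced as polyA libraries made with a SMARTER kit, per the labels' protocols, and all carry batch 1. The deposited read counts per gene are whole numbers, and mm10 is the build per the submitters' processing notes. Aligner, counter, strand setting and test: not given in the sources used here. FPKM values deposited by the authors equal count over gene length and over 1 scale per library. The depth of each library is unknown, since the table lists selected genes, which summed to 1989534 to 3486903 reads per library. The authors' deposited log2 fold changes are nonresponders over responders, and the authors' deposited p-values and adjusted p-values were copied. A further 6 per-sample columns, whose names match no label, were not used.

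From the FPKM values, group means ± SD, ratios of means (responders over nonresponders, no pseudocount) and per-library values were computed with Python 3.11.15 and pandas 2.3.3. No test was made, because the authors had selected the genes on this contrast. The 4 genes and all gene lists were chosen with earlier results of these data known. Named genes are the 4, up to 6 listed members of each list by smallest deposited p-value, and the 3 genes most like each of the 4. Cdkn1a in the list of activity-regulated genes and the split by responder replicate 3 were chosen after values were seen, as were the length and ratio descriptions. Alternatives were other averages, a pseudocount of 1, other scalings, leaving out each library, and log2 fold changes of edgeR 4.0.16 and DESeq2 1.42.0 fits over the listed counts, checked on simulated data. Positions of all 4 genes were checked against GENCODE M21 and are the same. Counting error was taken as 1 over the square root of the count, and it covers counting alone, since reads carry no molecular identifiers. Within groups, no pair of libraries was alike within sampling noise (chi-square per degree of freedom at least 4.13). Responder replicate 3 differed most, at 117 from replicate 1 and 113 from replicate 2, where the other pairs were at 4.13 to 11.6.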

Additional observations from a re-analysis of the deposited data

How the results depend on the processing

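Leaving out each library in turn gave log2 differences of 0.41 to 0.65 for Homer1 and 0.25 to 0.52 for Bdnf. For Inhba they were 0.31 to 0.58 and for Klf6 0.33 to 0.57. All 4 genes kept separate groups in each of these settings (range 4 to 4), beside 74.1% to 87.7% of all listed genes. That outcome was fixed in advance, since groups that are separate with all libraries stay so with fewer, and nothing is read from it. The highest log2 differences of Homer1, Inhba and Klf6, and the lowest of Bdnf, came without responder replicate 3. In that setting 3 of the 4 genes, in place of 0, lay above the median of the listed genes. That change in position follows in part from the selection of the listed genes, which was made with responder replicate 3 included. The median of the late activity-regulated genes lay between 0.33 and 0.67. Scaling to the summed listed reads, by the median of ratios and by TMM gave Homer1 0.12, 0.089 and 0.086, Inhba 0.064, 0.033 and 0.030, Klf6 0.034, 0.0087 and 0.0061, and Bdnf -0.066, -0.093 and -0.098, the reversed sign. These scalings bring the median of the listed genes, all selected as higher in responders, to between 0.0059 and 0.039. Under the first, 0 of the 4 genes had separate groups, beside 111 of all listed genes (8.07%). With that scaling, 0 of the 4 genes were highest in responder replicate 3, while 4 in place of 3 had it as their lowest responder. The shares of all listed genes in these positions of replicate 3 were not counted with that scaling. Nothing is therefore read from the positions of the 4 genes there. Of the 4 genes, Homer1 alone passed an adjusted threshold of 0.1 or an unadjusted one of 0.01 by the authors' deposited table, in place of 0. By the unadjusted p it ranked 51st of the 1375 listed genes, and Klf6, the next of the 4, ranked 377th. The share of all listed genes that passed these thresholds was not counted, so nothing is read from the 1 gene. The other averages, the pseudocount and the edgeR and DESeq2 fits on the FPKM library scale moved no log2 difference by more than the pooled SD between replicates. Those fits share the scale of the FPKM values, so they are no separate check of it. An edgeR fit with TMM, not among the fits checked on simulated data, gave Homer1 0.085, Inhba 0.024, Klf6 0.0036 and Bdnf -0.099.

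Whether replicate numbers pair the mice cannot be told from these values. Same-numbered deviations correlated at -0.060, 0.063 and -0.060 over 1141 genes, and differently numbered ones at -0.18 to 0.14. With the replicate block, the edgeR log2 difference was 0.50 for Homer1, 0.41 for Bdnf, 0.45 for Inhba and 0.44 for Klf6, against 0.52, 0.43, 0.47 and 0.44 without it. With 3 mice per group and a table of selected genes, how far these differences stand above the spread of unselected genes cannot be read from these values.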
